A study of Homo sapiens with 16 samples.

Results

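The genes described here are 9 components and regulators of the complement system, taken by name from the table of counts per gene: C1R, C1S, C3, CFB, CFD, SERPING1, CD46, CD55 and CD59. They are 9 of the 25370 genes counted, and all 9 had enough reads to be tested. The counts come from RNA-seq of HMC3, a line of human microglia kept in culture, with 16 libraries in 8 conditions of 2. Cells were kept in charcoal-stripped serum and then without serum before treatment for 24 h. One condition received vehicle. The other conditions received 0.1 nM estradiol (E2), 400 nM ketamine, 400 nM 2R6R-HNK, 400 nM 2S6S-HNK, or E2 at 0.1 nM together with one of these drugs at 400 nM. HNK is hydroxynorketamine, a metabolite of ketamine that carries a hydroxyl group, and 2R6R-HNK and 2S6S-HNK are mirror-image forms of the same molecule. All groups are 1 cell line. Whether both libraries of a condition are independent cultures is not given in the labels, so that the p-values measure only the spread between these libraries.

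Complement is a set of secreted proteases and cell-surface regulators that marks targets for removal by phagocytes. In the classical pathway the recognition protein C1q carries the proteases C1r and C1s, encoded by C1R and C1S, and C1s cleaves C4 and C2. All pathways meet at C3, the central component, whose fragment C3b binds factor B (CFB) to be cleaved by factor D (CFD) in the alternative pathway. SERPING1 encodes C1 inhibitor, which inactivates C1r and C1s. Host cells are protected by CD46, a cofactor for the breakdown of C3b and C4b, by CD55, which speeds the decay of the convertases, and by CD59, which blocks assembly of the membrane attack complex. In the brain, microglia are the known main source of C1q, and complement tags synapses for removal by these cells.

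Each library held 55300614 to 81646165 counts, and 16004 genes passed the filter on low counts. Of 14 microglial markers, 13 had a mean under 1 CPM (counts scaled to the library's total). P2RY12 had 7 counts at most and TMEM119 had 4, whereas CD68 (20.5 CPM) was well detected. Among 8 markers of fibroblasts and pericytes, 4 had at least 10 CPM, COL1A1 with 4550 CPM and PDGFRB with 264 CPM among them, while COL3A1, LUM and DCN had at most 6, 4 and 12 counts and did not pass the filter. The summed microglial markers were 18.9 to 22.2 CPM in the vehicle libraries and 19.5 to 25.0 CPM in the treated ones, and the fibroblast and pericyte sum was 4750 to 4760 and 4260 to 6470 CPM. Hepatocytes, the main source of plasma complement, were represented by 4 markers with a summed level of 0.505 CPM at most, F9 with no count. Summed levels of 4 astrocyte markers were 3.30 to 3.41 CPM in vehicle and 3.33 to 8.94 CPM after treatment, with AQP4 at 0 in every library. The corresponding ranges were 3.38 to 3.98 and 2.87 to 4.84 CPM for 5 neuronal markers, 2.58 to 2.62 and 1.89 to 4.25 CPM for 4 endothelial markers, and 1.26 to 2.10 and 1.20 to 3.67 CPM for 3 epithelial markers. The part of these lists in the results was not tested, and in bulk RNA fewer cells of a type and less RNA per cell cannot be told apart.

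A further 2 features of the libraries touch the results. The 2S6S-HNK and E2+2R6R-HNK libraries differed in 5.45% of the genes tested, while any other pair of conditions differed in 23.8% to 71.7%. Comparisons that use either of these conditions rest on the labels as given, and the cause of the likeness was not tested. The fold changes against vehicle also followed the GC content of the exons across genes (Spearman rho 0.442 to 0.769 over 15353 genes, which are not independent replicates). The comparisons with vehicle, the interactions and the pairs of compounds were therefore repeated after adjusting each library for exon GC content and length. Orders of the 8 conditions, from all 28 pairs of conditions, are given without this adjustment. Such an adjustment takes out changes of either origin, in the cells or in library preparation, that run with GC content. The exon GC content of the members ran from 36.5% (CD55) and 37.0% (CD46) through 45.3% (CD59) and 47.2% (C1S) to 51.1% (SERPING1), 52.8% (CFB), 53.1% (C3), 53.9% (C1R) and 63.3% (CFD), and the median over the genes tested was 48.6%.

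Per length of exon, the protective CD59 was the most abundant member and C3 the least. Mean levels over the 16 libraries were 25.8 CPM per kb for CD59, 11.9 for CFD, 4.53 for CD46, 2.05 for C1R, 0.689 for CD55, 0.653 for SERPING1, 0.407 for C1S, 0.140 for CFB and 0.0722 for C3. In vehicle alone CD55 (0.899 ± 0.0632 CPM per kb, SD, n = 2) was above C1R (0.836 ± 0.0206), and with 2S6S-HNK, E2+ketamine and E2+2R6R-HNK SERPING1 was above CD55, by 1.02 to 0.654 CPM per kb in the last. The order of the overall means was the same with the length of the longest transcript, although the levels were then 1.87 CPM per kb for CD55 and 1.66 for SERPING1. Both lengths are of GENCODE models, whereas the study counted reads on UCSC models, so levels per kb are approximate. CFB had 26 to 74 counts and C3 had 32 to 84 counts in a library, so that their values are the least precise.

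**Figure D1:**
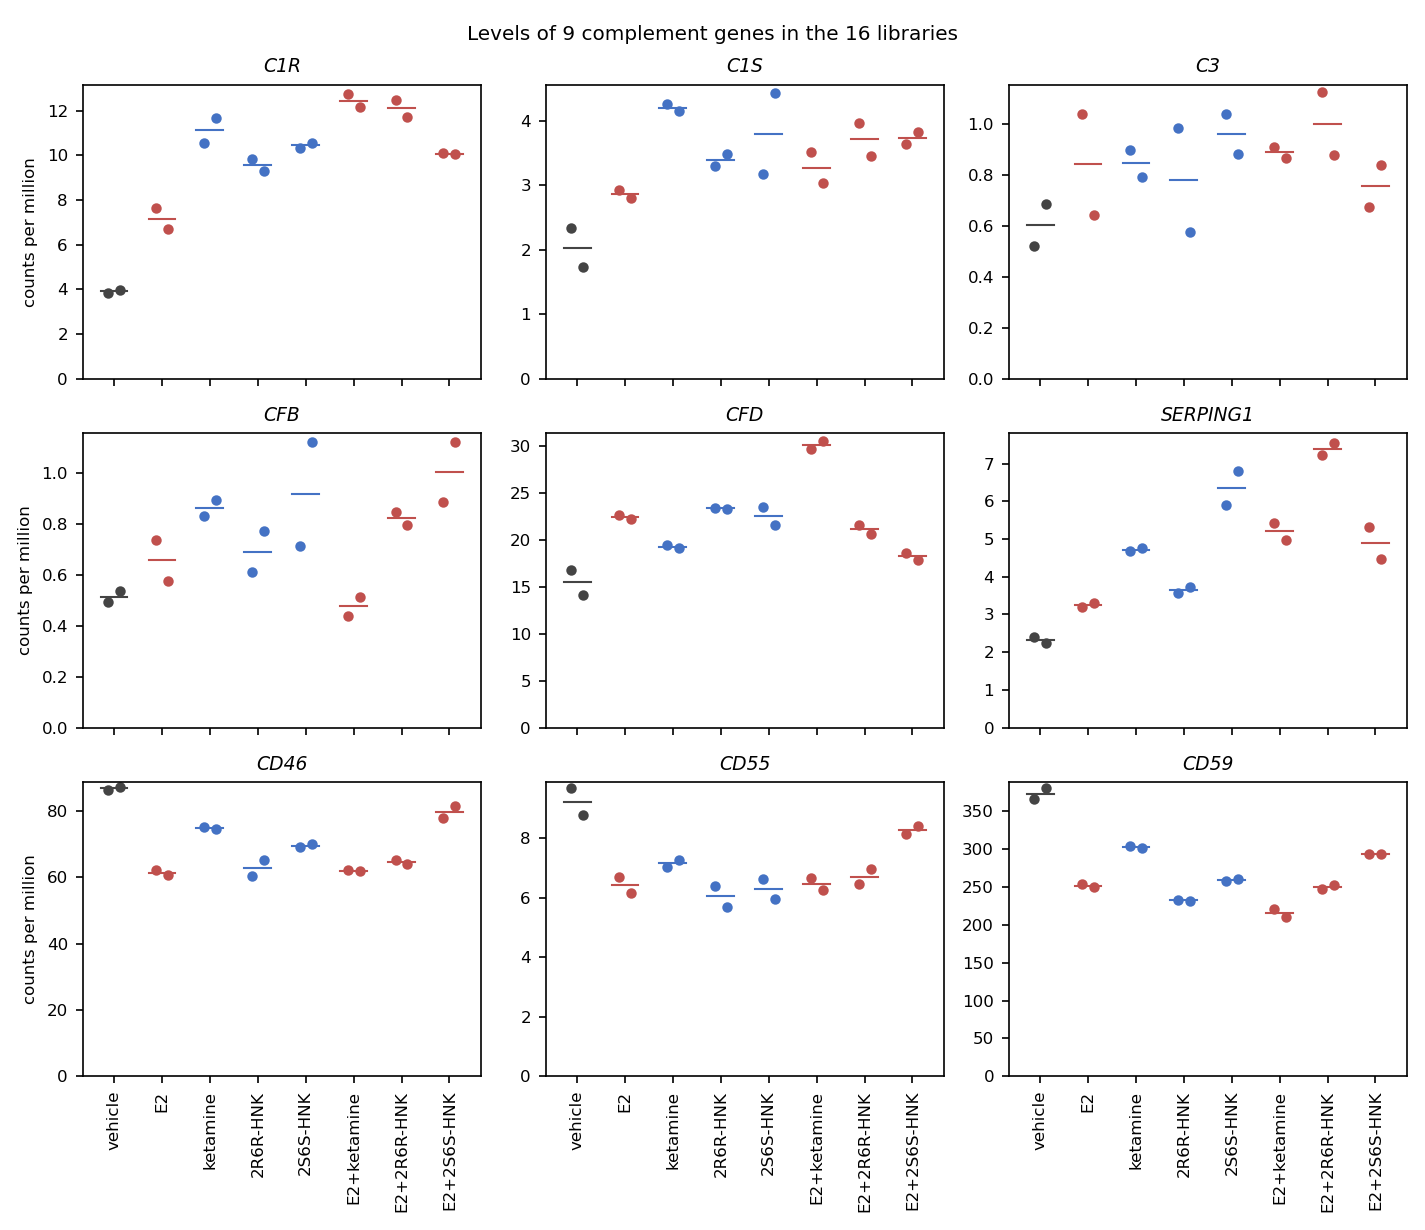
Level of each of the 9 complement genes in CPM (vertical axis, from 0) in the 2 libraries (points) of each of the 8 conditions, with the mean as a line; vehicle is dark grey, conditions without E2 are blue and those with E2 are red. C1R lies at 3.86 and 3.99 CPM in vehicle and at 6.70 CPM or more in every treated library, while CD59 lies at 366 and 380 CPM in vehicle and at 304 CPM or less elsewhere.

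The first comparison asked which members changed with each treatment against vehicle. C1R, C1S and SERPING1 rose and CD59 fell with every treatment, with or without the correction for GC content and length, though the C1S rise with E2 (0.49) was lost without the second vehicle library (0.29, adjusted p = 0.207) or the first E2 library (0.46, adjusted p = 0.0512). CFD rose and CD46 fell in all 7 comparisons and CD55 fell in 6, but the corrected fits ended or turned nearly all of these calls. C3 and CFB rose in 1 and 3 comparisons, and each of these 4 calls was lost when certain single libraries were left out. A gene rose or fell where its adjusted p was under 0.05 (edgeR quasi-likelihood test, Benjamini-Hochberg adjustment over all 16004 genes), and the study's own limit of a log2 fold change of at least 1 was applied as a second rule. The 7 comparisons share the same 2 vehicle libraries, so a change in all 7 is not 7 separate observations. Each comparison called 59.3% to 71.7% of all genes. The share of all genes that changed alike in all 7 was not determined.

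With E2, 4 members rose and 3 fell, where 29.9% of all genes rose and 32.7% fell. Ketamine raised 5 members and lowered 3, beside 26.8% and 32.5% of all genes. In the 2R6R-HNK libraries 4 members were higher and 3 lower (31.7% and 34.9% of all genes), and in the 2S6S-HNK libraries 5 were higher and 3 lower (32.1% and 35.8%). E2+ketamine raised 4 and lowered 3 (34.3% and 37.4% of all genes). For E2+2R6R-HNK the numbers were 5 and 3 (33.4% and 36.3%), and for E2+2S6S-HNK they were 5 and 2 (24% and 35.7%). The 9 members are few and most genes changed in each comparison, and no test of the list was made. The share of higher genes among all those called depended on the scaling. It was 45.2% with ketamine and 40.2% with E2+2S6S-HNK, but 55.6% and 54.3% with upper-quartile normalization.

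With the limit on the fold change, no member passed for E2, where 1.17% of all genes were higher by that rule. C1R, C1S and SERPING1 passed with ketamine (2.58% of all genes higher and 0.981% lower), C1R with 2R6R-HNK (1.82% and 1.92%), and C1R and SERPING1 with 2S6S-HNK (5.24% and 3.84%). The same pair, C1R and SERPING1, passed with E2+ketamine (4.47% and 6.56% of all genes), E2+2R6R-HNK (6.10% and 5.41%) and E2+2S6S-HNK (4.18% and 1.67%). No member was lower by that rule in any comparison, and with E2 0.644% of all genes were. Without the second vehicle library only 1 member passed with ketamine, and without the first 2S6S-HNK library 4 passed with 2S6S-HNK. Without the GC and length correction, the median log2 fold change of the members was 0.31 to 0.67 across the 7 comparisons, and that of all genes was -0.06 to -0.00. The correction moves several members, and no corrected median of the members is given.

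C1R and C1S, the proteases of the C1 complex, were higher after every treatment. C1R (ENSG00000159403, chr12:7187513-7245203, minus strand in GRCh37) was at 3.86 and 3.99 CPM in the vehicle libraries and at 7.64 and 6.70 CPM with E2. The libraries of single drugs had 10.6 and 11.7 CPM for ketamine, 9.86 and 9.32 CPM for 2R6R-HNK, and 10.35 and 10.6 CPM for 2S6S-HNK. Together with E2 the levels were 12.7 and 12.2 CPM for ketamine, 12.5 and 11.7 CPM for 2R6R-HNK, and 10.1 and 10.05 CPM for 2S6S-HNK. Both vehicle libraries were below all others, and both E2 libraries lay between vehicle and every drug-treated library, so these 3 sets did not overlap. How many of all genes separate conditions in such a way was not counted, here or for the members below. C1R rose by a log2 fold change of 0.87 ± 0.103 (SE, n = 2 libraries per condition) with E2 (edgeR quasi-likelihood adjusted p = 2.05e-10) and of 1.66 ± 0.097 with E2+ketamine (adjusted p = 3.62e-21), which is 3.17-fold. With ketamine the rise was 1.50 ± 0.095, with 2R6R-HNK 1.29 ± 0.098, with 2S6S-HNK 1.41 ± 0.099, with E2+2R6R-HNK 1.62 ± 0.096 and with E2+2S6S-HNK 1.36 ± 0.097. After the GC and length correction the 7 values ran from 0.65 to 1.32, all still higher. Of the neighbours in the uncorrected order of the 8 conditions, vehicle differed from E2 and E2 from 2R6R-HNK (log2 difference 0.42, edgeR adjusted p = 0.000316). The other 5 neighbouring pairs did not differ beyond their spread. C1R shares 672 bases of exon with C1RL on the same strand, and how reads there were assigned is not given in the sources used here. This overlap and those given below are of GENCODE models, not of the UCSC models on which the study counted reads.

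C1S (ENSG00000182326, chr12:7096351-7178336, plus strand), which lies next to C1R on chromosome 12, had 2.34 and 1.73 CPM in vehicle and 2.93 and 2.80 CPM with E2. It was at 4.26 and 4.15 CPM with ketamine, 3.30 and 3.48 CPM with 2R6R-HNK, and 3.175 and 4.43 CPM with 2S6S-HNK. With E2 added it was at 3.51 and 3.04 CPM for ketamine, 3.97 and 3.45 CPM for 2R6R-HNK, and 3.64 and 3.825 CPM for 2S6S-HNK. The vehicle libraries were again the lowest, but unlike C1R the highest mean was that of ketamine alone, 4.20 ± 0.0833 CPM (SD, n = 2), and not of E2+ketamine. C1S rose by a log2 fold change of 1.05 ± 0.156 (SE) with ketamine (edgeR adjusted p = 8.94e-08), and the rises with the other treatments were 0.49 to 0.90. After correction for GC content and length the 7 values were 0.58 to 1.07, all higher. The smallest rise, 0.49 ± 0.168 with E2 (edgeR adjusted p = 0.00910), was also not called by DESeq2 on the 4 libraries compared (0.51, adjusted p = 0.0715). C1R counts per C1S count were 1.98 ± 0.47 (SD, n = 2) in vehicle and 3.82 ± 0.27 with E2+ketamine, and the other conditions had means of 2.50 to 3.27. C1S shares 229 bases of exon with another gene model of its strand.

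The region upstream of C1R is shown because C1R had the largest rise of the members with 5 of the 7 treatments, and the motifs were chosen because the study addressed STAT3 and type I interferon. RefSeq promoter windows (GRCh38.p14, 250 bases before and 50 after a start site) existed for 6 members, 11 windows in all, and the coordinates given are those of an exact match in GRCh37. They were searched on both strands for TTCNNNGAA, the palindromic core of a STAT site, and for GAAANNGAA, the core of an interferon-stimulated response element, and no STAT match in the members overlapped an interferon match. The STAT core was found in 4 of the 11 windows, those of C1R, CFB and CD59, of which the CD59 windows overlap and share 1 match, and 7.66% of 35116 windows of all genes held it. The interferon core was found in 1 of the 11 windows, that of CFB, and 8.11% of all windows held it. These are matches of letters and not evidence of binding. Only stretches that hold a match are printed, and the first C1R window (chr12:7244992-7245291) held none of either core. The 250 bases before the second C1R start site (chr12:7244490-7244739, minus strand, inside the gene and in an intron of its longer transcripts) hold the STAT core in capitals, at -86 to -78 from the start. This stretch also lies within the annotated span of C1RL on the same strand.
C1R, second start site: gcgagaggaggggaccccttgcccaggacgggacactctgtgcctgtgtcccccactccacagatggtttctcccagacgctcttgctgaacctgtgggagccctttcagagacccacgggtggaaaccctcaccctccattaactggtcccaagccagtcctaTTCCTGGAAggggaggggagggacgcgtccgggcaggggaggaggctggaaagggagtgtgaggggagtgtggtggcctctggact
The CFB stretch (chr6:31913622-31913759, plus strand) lies inside the annotated gene, in an intron of its most upstream transcript, and ends where an annotated untranslated region begins, with the interferon core in capitals in the reverse orientation at -139 to -131 from the start. Its STAT core, TTCCGGGAA at -92 to -84, lies beyond the stretch shown.
CFB: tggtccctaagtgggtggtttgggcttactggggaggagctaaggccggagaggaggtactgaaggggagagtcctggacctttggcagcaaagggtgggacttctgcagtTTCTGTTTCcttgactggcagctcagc
The 250 bases before the first CD59 start site (chr11:33758026-33758275, minus strand, outside the gene) hold the STAT core in capitals at -128 to -120, and the same match falls in its second, overlapping window.
CD59, first start site: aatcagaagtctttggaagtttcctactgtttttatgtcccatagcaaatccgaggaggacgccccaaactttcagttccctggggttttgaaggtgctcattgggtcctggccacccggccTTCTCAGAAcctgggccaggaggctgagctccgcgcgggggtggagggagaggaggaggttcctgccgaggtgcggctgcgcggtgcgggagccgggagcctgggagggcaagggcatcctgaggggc

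SERPING1, which encodes the inhibitor of both C1 proteases, rose with them in every comparison. SERPING1 (ENSG00000149131, chr11:57364860-57386644, plus strand) had 2.40 and 2.25 CPM in vehicle and 3.20 and 3.29 CPM with E2. The single drugs gave 4.68 and 4.76 CPM for ketamine, 3.56 and 3.725 CPM for 2R6R-HNK, and 5.91 and 6.80 CPM for 2S6S-HNK. In the presence of E2 the values were 5.42 and 4.98 CPM for ketamine, 7.23 and 7.54 CPM for 2R6R-HNK, and 5.31 and 4.48 CPM for 2S6S-HNK. Vehicle was lowest, E2 and 2R6R-HNK alone came next, and the 2S6S-HNK and E2+2R6R-HNK libraries were highest, those being the pair of conditions whose libraries were alike over the whole table. SERPING1 rose by a log2 fold change of 1.67 ± 0.126 (SE, n = 2 per condition) with E2+2R6R-HNK (edgeR adjusted p = 8.24e-17), and of 1.45 ± 0.130 with 2S6S-HNK (adjusted p = 3.3e-14). The rise was 1.02 with ketamine, 0.64 with 2R6R-HNK, 1.16 with E2+ketamine, 1.08 with E2+2S6S-HNK and 0.48 ± 0.140 with E2 (adjusted p = 0.00241). Corrected for GC content and length, the rises were 0.38 to 1.50 and all were called.

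Among the alternative pathway genes, only CFD was abundant. C3 (ENSG00000125730, chr19:6677715-6730573, minus strand) had 0.523 and 0.688 CPM in vehicle, from 32 and 41 counts. The treated libraries had 0.577 to 1.13 CPM and overlapped the vehicle range. C3 was 0.73 ± 0.312 higher on the log2 scale with E2+2R6R-HNK (edgeR adjusted p = 0.0348), a call that was lost without the first E2+2R6R-HNK library (0.54, adjusted p = 0.217), without the first vehicle library (0.54, adjusted p = 0.211), with DESeq2 on the 4 libraries compared (0.75, adjusted p = 0.105) and after the GC and length correction (0.45, adjusted p = 0.215). In the other 6 comparisons the log2 fold change was 0.31 to 0.66, with intervals that reached from -0.33 to 1.31. The value with 2S6S-HNK (0.66, adjusted p = 0.0644) passed the threshold with no filter (0.67, adjusted p = 0.0492), with the stricter filter (0.68, adjusted p = 0.0455) and with upper-quartile normalization (0.74, adjusted p = 0.0388). C3 shares 1357 bases of exon with a lncRNA of the same strand.

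CFB (ENSG00000243649, chr6:31913427-31919863, plus strand) had 0.490 and 0.537 CPM in vehicle, from 30 and 32 counts. Its levels were 0.737 and 0.577 CPM with E2, 0.829 and 0.892 CPM with ketamine, 0.609 and 0.7695 CPM with 2R6R-HNK, and 0.712 and 1.12 CPM with 2S6S-HNK. The E2+ketamine libraries, at 0.439 and 0.512 CPM, overlapped vehicle, whereas E2+2R6R-HNK gave 0.845 and 0.796 CPM and E2+2S6S-HNK gave 0.883 and 1.12 CPM. CFB rose with ketamine (log2 fold change 0.74 ± 0.320, edgeR adjusted p = 0.0422), 2S6S-HNK (0.84 ± 0.330, adjusted p = 0.0224) and E2+2S6S-HNK (0.95 ± 0.320, adjusted p = 0.00886). The ketamine call was lost without any one of the 4 libraries compared (0.68 to 0.81, adjusted p = 0.0730 to 0.150). The 2S6S-HNK call was lost without its second library (0.47, adjusted p = 0.323), without the first vehicle library (0.77, adjusted p = 0.0929) and without the second (0.90, adjusted p = 0.0513). DESeq2 on the 4 libraries compared called neither (0.77, adjusted p = 0.110, and 0.87, adjusted p = 0.105). For E2+2S6S-HNK it was lost without its own second library (0.78, adjusted p = 0.0766) or the first vehicle library (0.89, adjusted p = 0.0544). The value with E2+2R6R-HNK (0.67, adjusted p = 0.0616) passed the threshold with the stricter filter (0.69, adjusted p = 0.0377) and with upper-quartile normalization (0.76, adjusted p = 0.0365). After the GC and length correction E2+2S6S-HNK alone remained called (0.84, adjusted p = 0.0226). CFB shares 2249 bases of exon with a readthrough gene model of the same strand, ENSG00000244255.

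CFD, the factor D gene (ENSG00000197766, chr19:859453-867884, plus strand), had 16.7 and 14.2 CPM in vehicle and 22.6 and 22.3 CPM with E2. It was at 19.4 and 19.2 CPM with ketamine, 23.4 and 23.3 CPM with 2R6R-HNK, and 23.5 and 21.6 CPM with 2S6S-HNK. Added E2 gave 29.6 and 30.55 CPM for ketamine, 21.6 and 20.7 CPM for 2R6R-HNK, and 18.6 and 17.9 CPM for 2S6S-HNK. Vehicle was the lowest and E2+ketamine the highest, and neither overlapped any other condition. CFD rose by 0.96 ± 0.066 on the log2 scale with E2+ketamine (edgeR adjusted p = 1.52e-18), and after the GC and length correction by 0.24 ± 0.063 (adjusted p = 0.000749). Its rises with the other treatments, 0.24 to 0.60, were all lost with that correction, which left -0.07 to 0.12. The rise with E2+2S6S-HNK (0.24, edgeR adjusted p = 0.00176) was also lost without the second vehicle library (0.13, adjusted p = 0.180), and its sign turned with the correction (-0.05). CFD has the highest GC content of the members, and it shares 255 bases of exon with MED16 on the opposite strand.

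**Figure D2:**
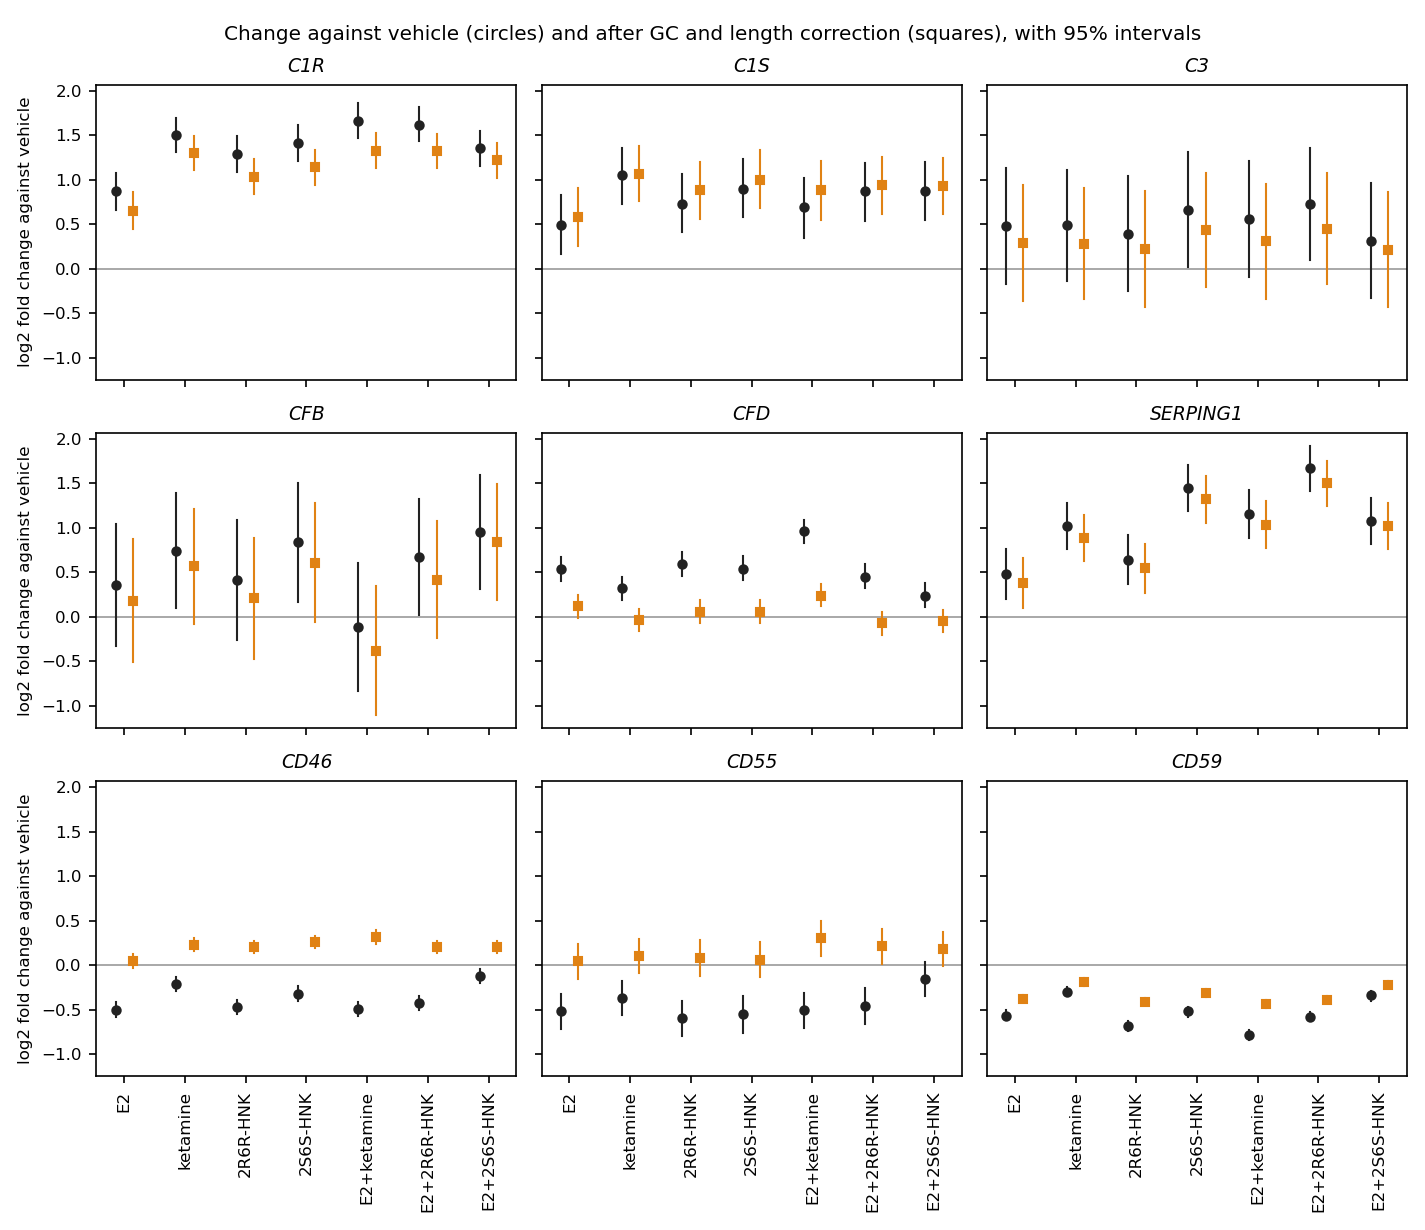
Log2 fold change against vehicle (vertical axis) with 95% interval for each of the 9 genes and 7 treatments, as fitted (black circles) and after correction for GC content and exon length (orange squares). C1R, C1S and SERPING1 stay above 0 and CD59 stays below 0 in both fits, whereas CD46 moves from -0.50 to 0.05 with E2 and to 0.20 or more with the other treatments, and CFD moves close to 0 for all treatments but E2+ketamine.

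Of the membrane regulators CD59 and CD46 fell in all 7 comparisons and CD55 in 6 without correction, and CD59 alone stayed lower with the GC and length correction. CD59 (ENSG00000085063, chr11:33724556-33758025, minus strand), the inhibitor of the membrane attack complex, had 366 and 380 CPM in vehicle and 253.5 and 250 CPM with E2. Its levels were 304 and 302 CPM with ketamine, 233 and 231 CPM with 2R6R-HNK, and 257 and 261 CPM with 2S6S-HNK. In combination with E2 they were 221 and 210 CPM for ketamine, 247 and 252.5 CPM for 2R6R-HNK, and 294 and 294 CPM for 2S6S-HNK. Both vehicle libraries were above all others and both E2+ketamine libraries below all others, with no overlap. CD59 fell by 0.79 on the log2 scale with E2+ketamine (SE 0.027, edgeR adjusted p = 1.34e-30), to 0.579 of the vehicle level. It fell by 0.57 with E2, 0.30 with ketamine, 0.68 with 2R6R-HNK, 0.52 with 2S6S-HNK, 0.58 with E2+2R6R-HNK and 0.34 with E2+2S6S-HNK. The corrected log2 fold changes were -0.44 to -0.19, and all 7 were still called (adjusted p of 5.77e-12 or less). In the uncorrected fit the order of the conditions was better resolved than for any other member, with 24 of 28 pairs of conditions called. The neighbours E2+2R6R-HNK and E2 (250 and 252 CPM), E2 and 2S6S-HNK (252 and 259 CPM), and E2+2S6S-HNK and ketamine (294 and 303 CPM) did not differ beyond their spread, and the other 4 pairs of neighbours did. CD59 shares 629 bases of exon with another gene model of its strand, ENSG00000284969.

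CD46 (ENSG00000117335, chr1:207925382-207968858, plus strand), the cofactor for cleavage of C3b and C4b, had 86.3 and 87.3 CPM in vehicle. It was at 62.0 and 60.7 CPM with E2, 75.1 and 74.4 CPM with ketamine, 60.3 and 65.1 CPM with 2R6R-HNK, and 69.2 and 69.9 CPM with 2S6S-HNK. The combinations with E2 gave 62.1 and 61.75 CPM for ketamine, 65.2 and 63.9 CPM for 2R6R-HNK, and 78.0 and 81.6 CPM for 2S6S-HNK. The vehicle libraries were the highest of the 16. Uncorrected, CD46 fell in all 7 comparisons, by 0.12 to 0.50 on the log2 scale, but with the GC and length correction it was higher in 6 of them, by 0.20 to 0.31, and was not called with E2 (0.05, edgeR adjusted p = 0.341). The smallest fall, -0.12 with E2+2S6S-HNK (edgeR adjusted p = 0.00449), was also lost without the first E2+2S6S-HNK library (-0.09, adjusted p = 0.0982), with upper-quartile normalization (-0.02, adjusted p = 0.715), and in fits of the 4 libraries compared only (-0.05 with edgeR, adjusted p = 0.264, and -0.05 with DESeq2, adjusted p = 0.361). CD46 shares 797 bases of exon with MIR29B2CHG on the opposite strand.

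CD55 (ENSG00000196352, chr1:207494864-207560149, plus strand), the decay-accelerating factor, lies on the same chromosome. It had 9.68 and 8.76 CPM in vehicle, 6.68 and 6.16 CPM with E2, 7.03 and 7.265 CPM with ketamine, 6.40 and 5.68 CPM with 2R6R-HNK, and 6.625 and 5.95 CPM with 2S6S-HNK. With E2 it had 6.67 and 6.26 CPM for ketamine, 6.45 and 6.95 CPM for 2R6R-HNK, and 8.15 and 8.40 CPM for 2S6S-HNK. Both vehicle libraries were above every treated one, though the E2+2S6S-HNK libraries came close. CD55 fell in 6 comparisons, by 0.37 to 0.60 on the log2 scale, and had a log2 fold change of -0.16 with E2+2S6S-HNK (edgeR adjusted p = 0.155). With the GC and length correction the sign of all 7 turned (0.04 to 0.30), and CD55 was then called higher with E2+ketamine alone (0.30, adjusted p = 0.00782). No 2 neighbours in the uncorrected order of the 8 conditions differed beyond their spread.

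The second comparison asked whether a drug acted differently when E2 was present. The interaction is the log2 effect of the drug with E2 (E2+drug against E2) minus its effect without E2 (drug against vehicle). C1R gained less from each drug in the presence of E2, as did C1S from ketamine and 2S6S-HNK, while SERPING1 gained more from 2R6R-HNK and less from 2S6S-HNK. For ketamine 2 interactions of members were positive and 3 negative, beside 24.5% and 13.1% of all genes (37.5% in all). For 2R6R-HNK the numbers were 4 and 2 (31.5% and 25.2% of all genes, 56.6% in all), and for 2S6S-HNK 3 and 4 (32.9% and 32.2%, 65.1% in all). The 2R6R-HNK and 2S6S-HNK interactions use the pair of conditions whose libraries were alike. All 3 interactions of a gene share the same vehicle and E2 libraries, so like signs across the drugs are not separate observations.

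C1R rose by 1.50 with ketamine alone and by 0.79 ± 0.089 (SE) when ketamine was added to E2, an interaction of -0.71 ± 0.132 (edgeR adjusted p = 1.88e-05). For 2R6R-HNK the effects were 1.29 and 0.75 (interaction -0.54 ± 0.133, adjusted p = 0.000496), and for 2S6S-HNK they were 1.41 and 0.49 (interaction -0.92 ± 0.134, adjusted p = 3.21e-08). Each effect with E2 was still a rise, and the GC and length correction left all 3 interactions called (-0.63, -0.37 and -0.57). C1S followed for ketamine, with effects of 1.05 and 0.19 ± 0.158 and an interaction of -0.85 ± 0.223 (edgeR adjusted p = 0.00170), and ketamine added to E2 gave no called change of C1S (adjusted p = 0.332). The C1S interaction with 2S6S-HNK was -0.52 ± 0.224 (edgeR adjusted p = 0.0371). That call was lost without the second 2S6S-HNK library (-0.26, adjusted p = 0.363), the second vehicle library (-0.32, adjusted p = 0.253), the first E2 library (-0.49, adjusted p = 0.0891) or the first E2+2S6S-HNK library (-0.49, adjusted p = 0.0831), and with DESeq2 on the groups compared (-0.56, adjusted p = 0.0937). The value for 2R6R-HNK was -0.36 (adjusted p = 0.173), which passed without the first vehicle library (-0.60, adjusted p = 0.0421).

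SERPING1 rose by 0.64 with 2R6R-HNK alone and by 1.19 ± 0.120 on top of E2, an interaction of 0.54 ± 0.183 (edgeR adjusted p = 0.00985). For 2S6S-HNK the effects were 1.45 and 0.60 ± 0.124, an interaction of -0.85 ± 0.181 (adjusted p = 4.69e-05), the opposite sign. Both were called after the GC and length correction (0.57 and -0.67). Ketamine gave -0.34 (adjusted p = 0.144). The 3 drugs thus raised SERPING1 with and without E2, by amounts that depended on E2 for both metabolites, with the labels taken as given.

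CFB rose by 0.74 with ketamine alone and had a log2 difference of -0.47 (95% interval -1.16 to 0.23) when ketamine was added to E2. Its interaction of -1.21 ± 0.471 (edgeR adjusted p = 0.0378) was lost without any of 6 of the 8 libraries it uses (both vehicle, both ketamine, the first E2 and the first E2+ketamine library; -1.28 to -1.02, adjusted p = 0.0525 to 0.143), with DESeq2 on the groups compared (-1.23, adjusted p = 0.0787) and after the GC and length correction (-1.13, adjusted p = 0.0568). C3 had no called interaction, the largest being -0.83 with 2S6S-HNK (adjusted p = 0.0986), which passed without the second E2 library (-1.13, adjusted p = 0.0328).

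CFD had interactions of -0.68 with 2R6R-HNK and -0.84 with 2S6S-HNK, which shrank to -0.25 and -0.23 with the GC and length correction but were still called (adjusted p = 0.0167 and 0.0367). CD59 fell with each drug alone, but with E2 already present 2R6R-HNK left it at -0.01 ± 0.026 (edgeR adjusted p = 0.738) and 2S6S-HNK raised it by 0.22 ± 0.026 (adjusted p = 3.97e-10). The CD59 interactions were 0.67 ± 0.037 with 2R6R-HNK (edgeR adjusted p = 5.28e-21) and 0.75 ± 0.037 with 2S6S-HNK (adjusted p = 3.47e-23), and 0.40 and 0.47 after the correction. With ketamine the CD59 interaction was 0.08 (adjusted p = 0.101). It passed the threshold without the second E2+ketamine library (0.11, adjusted p = 0.0214), without the first vehicle library (0.10, adjusted p = 0.0459), and with the GC and length correction (0.14, adjusted p = 0.000211). CD46 (0.23, 0.54 and 0.70) and CD55 (0.38, 0.67 and 0.92) also had positive interactions with ketamine, 2R6R-HNK and 2S6S-HNK in this order, but none of these 6 was called after the correction, and the sign of CD46 turned for both metabolites (-0.05 and -0.11). The CD55 interaction with ketamine was further lost without any of 4 single libraries, the first vehicle, first ketamine, second E2 and first E2+ketamine library (0.30 to 0.35, adjusted p = 0.0867 to 0.146), with upper-quartile normalization (0.29, adjusted p = 0.105) and with DESeq2 on the groups compared (0.36, adjusted p = 0.0826).

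**Figure D3:**
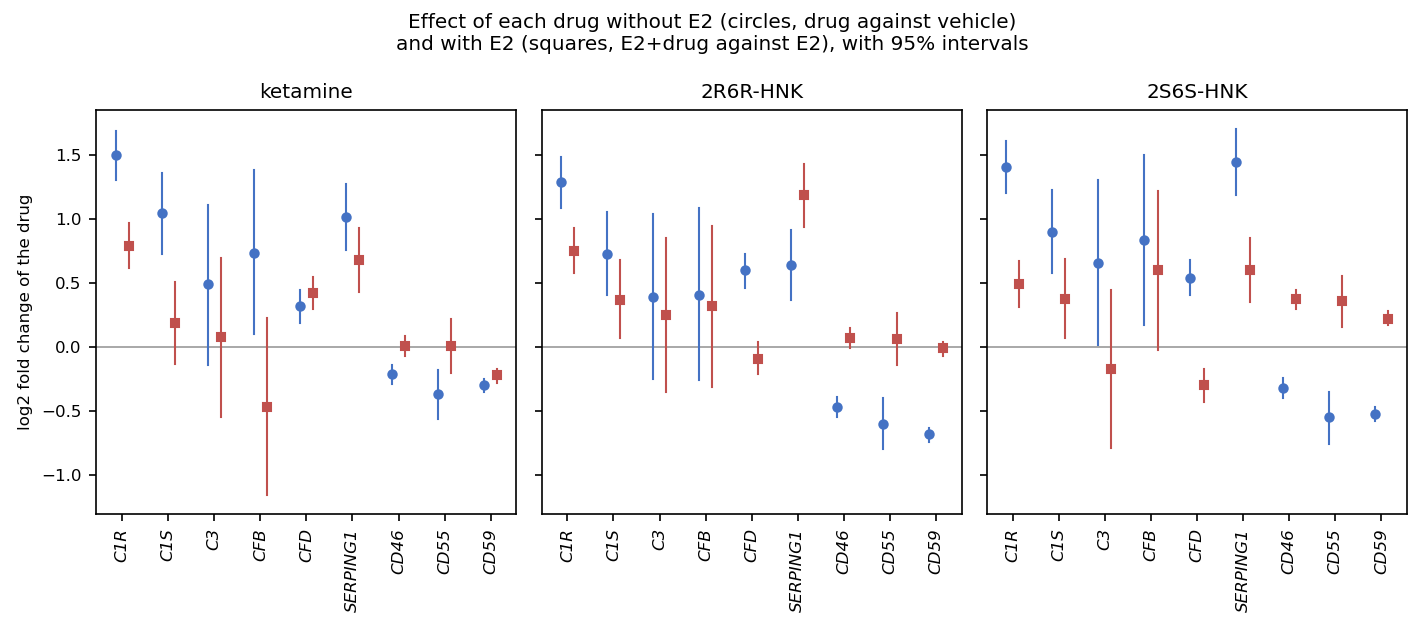
Log2 effect of ketamine, 2R6R-HNK and 2S6S-HNK on the 9 genes (vertical axis, 95% intervals) without E2 (blue circles, drug against vehicle) and with E2 (red squares, E2+drug against E2), without correction for GC content. C1R effects drop from 1.50, 1.29 and 1.41 to 0.79, 0.75 and 0.49, and SERPING1 moves up for 2R6R-HNK (0.64 to 1.19) but down for 2S6S-HNK (1.45 to 0.60); the GC and length correction ends the CD46 and CD55 calls of a difference, loses that of CFB at a like value (-1.13 after -1.21) and reduces those of C1R, CFD and CD59 with both metabolites.

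The third comparison set the 3 compounds against each other at the same dose and time. There were 6 pairs, 3 without and 3 with E2, and p-values were adjusted over all genes and all 6 pairs together. Ketamine exceeded 2R6R-HNK in 5 members and fell below it in 1 (23.2% and 22.8% of all genes). Against 2S6S-HNK it was higher in 2 and lower in 2 (22.3% and 24.5%). The mirror-image pair, 2R6R-HNK and 2S6S-HNK, differed in 3 members, all lower with 2R6R-HNK (23.0% of all genes were lower and 21.5% higher). In the presence of E2, ketamine against 2R6R-HNK gave 1 higher and 3 lower members (25.3% and 26.7%), ketamine against 2S6S-HNK gave 2 and 4 (31.2% and 34.4%), and the mirror-image pair gave 3 and 3 (29.0% and 24.8%).

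SERPING1 separated the mirror-image metabolites most. It was lower with 2R6R-HNK than with 2S6S-HNK by a log2 difference of -0.81 ± 0.120 (edgeR adjusted p = 1.2e-07), and with E2 the order was the opposite, 0.59 ± 0.111 higher with 2R6R-HNK (adjusted p = 1.23e-05). The corrected values were -0.77 and 0.48, both called. Ketamine lay between them without E2, 0.38 above 2R6R-HNK (adjusted p = 0.00684) and 0.43 below 2S6S-HNK (log2 difference -0.43, adjusted p = 0.00122). The first of these was lost without the first 2R6R-HNK library (0.34, adjusted p = 0.0622) or with DESeq2 on the groups compared (0.36, adjusted p = 0.0636), and the second without the second 2S6S-HNK library (-0.32, adjusted p = 0.0534). With E2, ketamine was below 2R6R-HNK by -0.51 ± 0.113 (adjusted p = 0.000157), and its difference from 2S6S-HNK was 0.08 (95% interval -0.15 to 0.32). Both mirror-image differences use a condition of the pair whose libraries were alike, 2S6S-HNK and E2+2R6R-HNK. These conditions were the highest for SERPING1 and did not differ in it beyond their spread (log2 difference -0.21, edgeR adjusted p = 0.289). The opposite order with E2 thus rests on the labels as given.

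For C1R and C1S the mirror-image forms could not be told apart without E2. The C1R difference was -0.12 (95% interval -0.30 to 0.05) and that of C1S -0.17 (-0.47 to 0.13). C1R was 0.21 ± 0.083 higher with ketamine than with 2R6R-HNK (edgeR adjusted p = 0.0308), which was lost without the second 2R6R-HNK library (0.17, adjusted p = 0.164) or the second ketamine library (0.14, adjusted p = 0.286), and with DESeq2 on all libraries (0.20, adjusted p = 0.0603) or the groups compared (0.19, adjusted p = 0.141). With E2, C1R was 0.31 higher with ketamine (adjusted p = 0.00186) and 0.27 higher with 2R6R-HNK (adjusted p = 0.00591) than with 2S6S-HNK, and neither was called after the GC and length correction (0.11 and 0.10). The second was also lost without the first E2+2R6R-HNK library (0.22, adjusted p = 0.0738). No pair was called in C1S, the widest value being 0.31 (0.02 to 0.60, adjusted p = 0.0671) for ketamine minus 2R6R-HNK, which passed the threshold with no filter (0.32, adjusted p = 0.0469) and with only the groups compared in the fit (0.30, adjusted p = 0.0392). None was called in C3, with intervals that reached from -0.88 to 1.01.

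CFB was lower with E2+ketamine than with E2+2S6S-HNK by -1.06 ± 0.325 (edgeR adjusted p = 0.00487), and remained so after the correction (-1.22, adjusted p = 0.00153). The difference from E2+2R6R-HNK was -0.79 (adjusted p = 0.0427), a call lost without any one of the 4 libraries (-0.90 to -0.68, adjusted p = 0.0687 to 0.167), on the groups compared (-0.77 with edgeR, adjusted p = 0.0533, and with DESeq2, adjusted p = 0.174) and with DESeq2 on all libraries (-0.76, adjusted p = 0.0623), and kept after the correction (-0.80, adjusted p = 0.0468). Between the mirror-image forms the CFB difference was -0.43 (95% interval -1.06 to 0.20) without E2 and -0.28 (-0.87 to 0.31) with it. E2+ketamine also had more CFD than E2+2R6R-HNK (0.51) and E2+2S6S-HNK (0.72), and these held at 0.32 and 0.29 with the correction (adjusted p = 1.02e-05 and 5.56e-05). The other called CFD pairs were lost or turned with the correction: ketamine minus 2R6R-HNK (-0.28, corrected -0.09), ketamine minus 2S6S-HNK (-0.22, corrected -0.10) and E2+2R6R-HNK minus E2+2S6S-HNK (0.21, corrected -0.03). The second of these was lost too without the first 2S6S-HNK library (-0.16, adjusted p = 0.0878), and the third without the first E2+2R6R-HNK library (0.18, adjusted p = 0.0583).

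CD59 differed in all 6 pairs. It was higher with ketamine than with 2R6R-HNK (0.38 ± 0.026, edgeR adjusted p = 1.05e-17) and 2S6S-HNK (0.23 ± 0.026, adjusted p = 2.79e-10), and lower with 2R6R-HNK than with 2S6S-HNK (-0.16 ± 0.027, adjusted p = 1.55e-06). In the presence of E2 ketamine gave less CD59 than 2R6R-HNK (-0.21) and 2S6S-HNK (-0.44), and 2R6R-HNK less than 2S6S-HNK (-0.23). With the GC and length correction 5 of the 6 were called (0.22, 0.12, -0.10, -0.21 and -0.17), and E2+ketamine minus E2+2R6R-HNK was not (-0.05, adjusted p = 0.0749). The called differences in CD46 (5 pairs, -0.36 to 0.26) and CD55 (3 pairs, -0.35 to 0.24) had no corrected value of the same sign that passed the threshold, and the CD46 difference between E2+ketamine and E2+2S6S-HNK turned from -0.36 to 0.11 (adjusted p = 0.00799). For CD46 some of these calls were lost without single libraries. They were ketamine minus 2S6S-HNK without the first 2S6S-HNK library (0.10, adjusted p = 0.0709) or the first ketamine library (0.10, adjusted p = 0.0833), and 2R6R-HNK minus 2S6S-HNK without the first 2R6R-HNK library (-0.09, adjusted p = 0.107). For CD55 they were ketamine minus 2R6R-HNK without the second 2R6R-HNK library (0.16, adjusted p = 0.286) or either ketamine library (0.21 to 0.26, adjusted p = 0.0746 to 0.154), and E2+2R6R-HNK minus E2+2S6S-HNK without the first E2+2R6R-HNK library (-0.25, adjusted p = 0.0836). DESeq2 also did not call CD55 for ketamine minus 2R6R-HNK (0.23, adjusted p = 0.0777, on all libraries and 0.22, adjusted p = 0.181, on the groups compared) or, on the groups compared, for E2+ketamine minus E2+2S6S-HNK (-0.31, adjusted p = 0.0562).

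**Figure D4:**
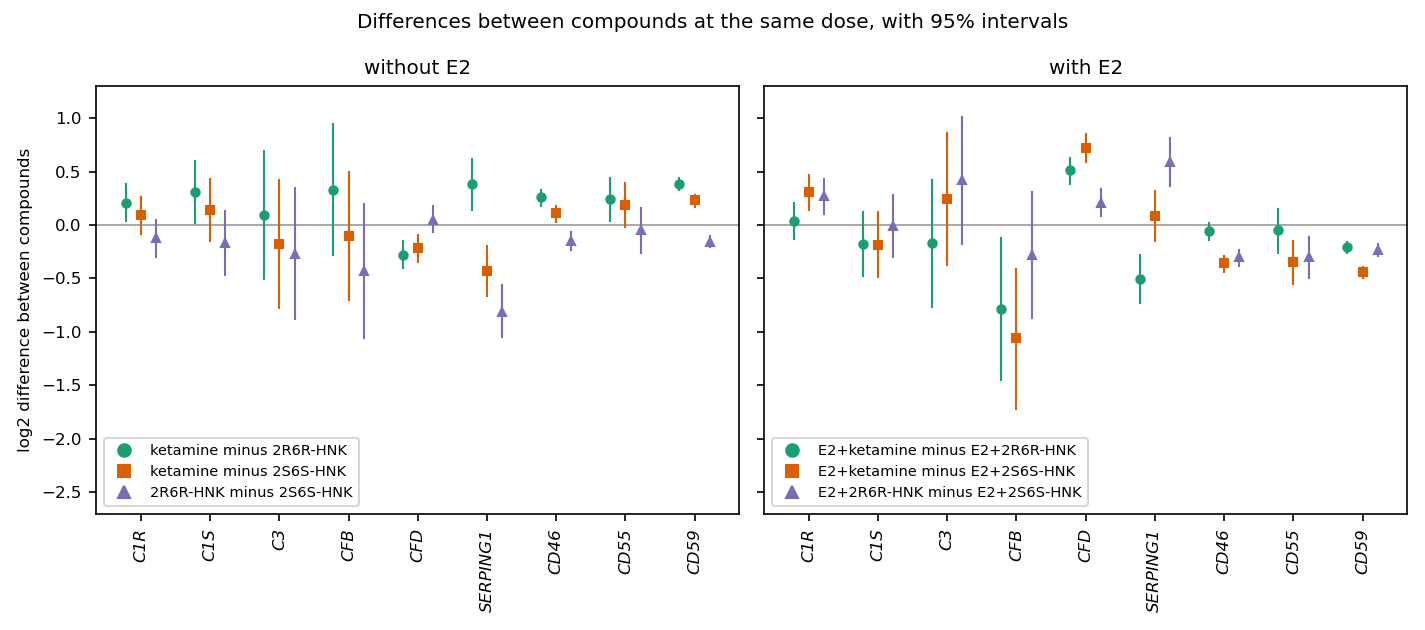
Log2 difference between compounds at 400 nM (vertical axis, 95% intervals) for the 9 genes, without E2 (left) and with E2 (right), without correction for GC content. SERPING1 shows opposite signs for 2R6R-HNK minus 2S6S-HNK (purple triangles, -0.81 and 0.59), and CFB lies lowest for E2+ketamine (-0.79 and -1.06). Differences that use 2S6S-HNK or E2+2R6R-HNK, the conditions whose libraries were alike, rest on the labels as given.

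The members were then set beside the rest of the pathway, a list of 57 complement genes of which 26 passed the filter. Several partners that the members need were not detectable. C1QA and C1QC, chains of the C1q that carries C1r and C1s, had no counts in any library, and the third chain C1QB had 2 counts at most. A count of 0 allows up to 3 counts, which is 0.0367 to 0.0543 CPM in these libraries and covers counting error only. C4A and C4B, the substrates of C1s, were listed at 0 throughout, but they are near-identical copies that counts of uniquely mapped reads can miss. Factor I (CFI), the protease that CD46 assists, had 2 counts at most. Of the 7 terminal genes only C5 (4 to 41 counts) and C8G (11 to 38 counts) were tested.

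Of the 17 other genes tested, 3 to 6 rose and 1 or 2 fell in each comparison with vehicle, where 24% to 34.3% of all genes rose and 32.5% to 37.4% fell. The median log2 fold change of the 26 genes, without the GC and length correction, was 0.28 to 0.56 across the 7 comparisons. That of all genes was -0.06 to -0.00. C1RL, the C1r-like protease gene beside C1R, rose in all 7 comparisons (log2 fold change 0.38 to 1.16), and in 6 with the GC and length correction. C2, the other substrate of C1s, rose in 6 (0.63 to 1.66, the exception 2R6R-HNK at 0.25, edgeR adjusted p = 0.450) but in 3 with the correction. VTN, which encodes the soluble terminal pathway inhibitor vitronectin, rose in 6 (up to 1.60 with E2+ketamine) and in 4 with the correction. CLU, encoding clusterin, another inhibitor of the terminal complex, rose in 4 by 0.12 to 0.68 from a mean level of 62.6 CPM, and with the correction it rose in 3 and fell in 1. MASP2, a protease of the lectin pathway, fell in 3 (-0.70 to -0.54), and in 5 with the correction. MASP1, the other lectin pathway protease tested, rose in 5 (1.14 to 2.19) and in 4 with the correction, from 9 to 59 counts in a library, and is named outside the rule after its values were seen. C1QBP, whose protein binds C1q heads but resides mainly in mitochondria, had 160 CPM and rose in 3 and fell in 4 comparisons (-0.48 to 0.12). The receptors for C3a and C5a, C3AR1 and C5AR1, were called in none of the 7 (edgeR adjusted p of 0.130 or more), at 27 and 21 counts at most.

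**Figure D5:**
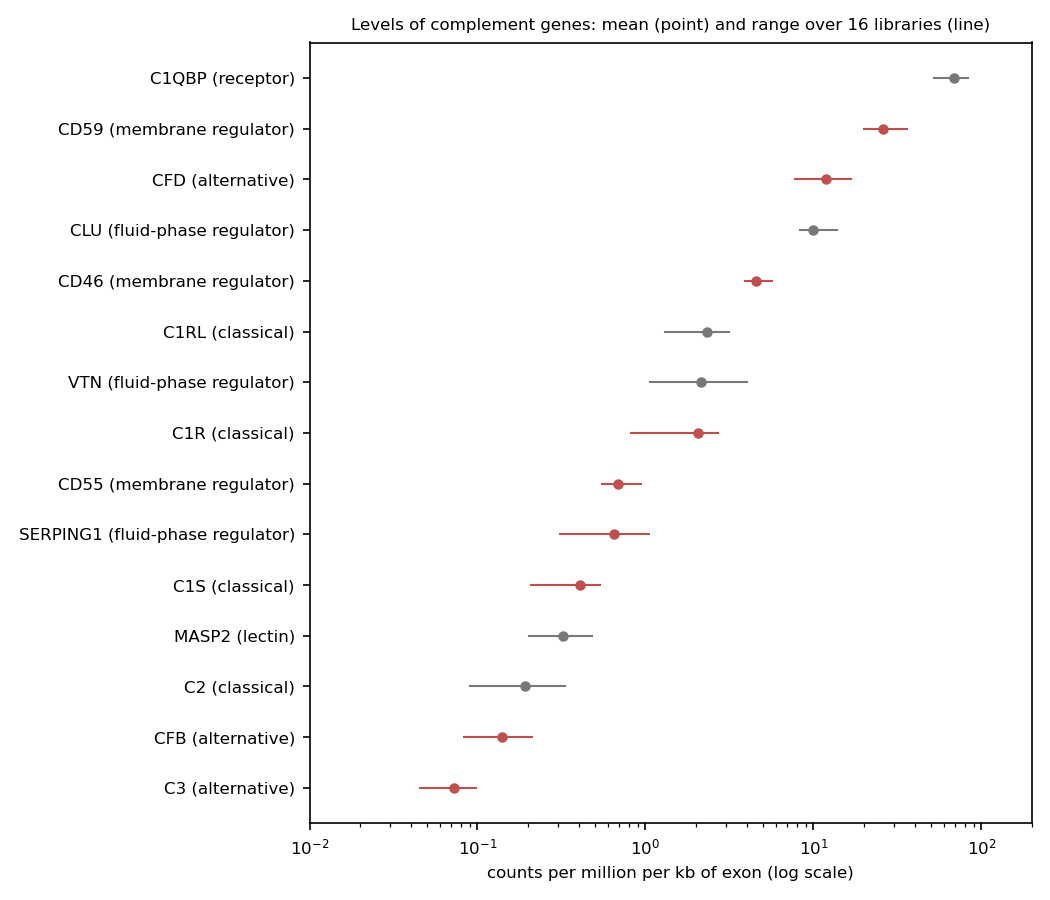
Mean level (point) and range over the 16 libraries (line) in CPM per kb of exon on a log axis for the 9 members (red) and the other complement genes with a mean of at least 1 CPM (grey). C1QBP, CD59 and CFD are highest, at 68.7, 25.8 and 11.9 CPM per kb, and C3 is the lowest member at 0.0722.

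The genes whose pattern over the 8 condition means was most like that of each member were taken by Pearson's r from 10369 genes with a mean of at least 5 CPM, as a description over 8 points that share libraries. For C1R they were CEBPD (r = 0.994), PLA2G6 (0.987) and EFNA2 (0.984), and 230 genes had an r of at least 0.9. C1S was most like APCDD1L (0.958), OLFML2A (0.951) and SYT11 (0.948), with 38 such genes. SERPING1 was most like LRP5 (0.991), RTN4RL2 (0.991) and TSNARE1 (0.989), with 498. Closest to CFB were EMC3-AS1 (0.939), IFNAR2 (0.934) and TLCD2 (0.931), with 11. C3, at its low counts, had PPP1R10 (0.993), TBC1D22B (0.985) and SLC35E1 (0.984) as its nearest genes, with 364. CFD had DAPK3 (0.993), FDX1L (0.991) and SHISA4 (0.990), and 1071 genes at 0.9 or more. For the membrane regulators the nearest were ATF2 (0.993), DNAAF2 (0.990) and TMEM47 (0.988) for CD46, NKIRAS1 (0.994), MAN2A1 (0.986) and CCDC23 (0.980) for CD55, and IPO8 (0.994), TMEM69 (0.991) and WDR48 (0.990) for CD59. CD46, CD55 and CD59 had 679, 611 and 1486 genes at 0.9 or more, so such a pattern is common in these libraries.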

How the data were processed

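HMC3 cells were profiled by RNA-seq in 16 libraries, 2 for each of 8 conditions. The authors made amplified cDNA (Ovation RNA-seq system v2), sequenced paired reads, aligned them to hg19 with TopHat2 2.0.14 and Bowtie2 2.2.6 per the submitters' processing notes, and deposited raw counts per gene from uniquely mapped pairs (featureCounts 1.4.6). Versions in the study's methods differ, and the strand setting is not given in the sources used here. Of counts from 1 to 9, 65.8% were even, against 49.9% of counts of 500 or more, and a fit on halved counts was therefore among the alternatives. No library was a duplicate of its partner (chi-square per gene 2.67 to 4.34).

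The analysis used R 4.3.3, edgeR 4.0.16 (filterByExpr, TMM, 1 quasi-likelihood fit with a mean per condition, 8 residual degrees of freedom, common biological variation 2.81%), and DESeq2 1.42.0. P-values were adjusted by Benjamini-Hochberg over all 16004 genes, with a threshold of 0.05, and over all 6 pairs of compounds together. With 2 libraries against 2, no permutation test can reach 0.05. Intervals are 95%. CPM are counts over TMM-scaled totals. Lengths, GC content and exon overlaps came from GENCODE models on GRCh37 (21539 symbols matched directly, 1493 by an older symbol). The study counted reads on UCSC hg19 models, which can differ from these. For the correction, each library's deviations from the genes' mean log2 CPM were fitted by loess (span 0.5) on GC content and then on log2 length, and the fit entered edgeR as an offset. The members and lists were chosen with earlier results of these data known. Named genes were the members, list genes with a mean of at least 1 CPM, the defining partners of the pathway, and the 3 genes most like each member. Alternatives were DESeq2, fits of the groups compared only, other filters, upper-quartile normalization, the replicate numbers of the labels as a block, the correction, both together, halved counts and each library left out. The correction of drug effects with E2 was added after seeing the data. In a simulation of ketamine against vehicle on 16004 genes, 100 genes were changed at each of 2 sizes. There edgeR recovered 100% of genes changed by a log2 of 1.5 and 97.0% of those changed by 0.75, with 12 false calls. In the data 59.3% of genes were called in this comparison. The simulation therefore cannot speak to false calls under so wide a change. A microglial marker and a gene of the wider list are not reported here, and the marker is left out of the summed level.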

Additional observations from a re-analysis of the deposited data

Results flagged for a closer look

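The effect of a drug on a member differed, by the interaction test in edgeR, between cultures with and without E2 in 18 of 27 cases. These cases share the vehicle and E2 libraries and are not independent. With ketamine the interaction was -0.71 for C1R, -0.85 for C1S, -1.21 for CFB, 0.23 for CD46 and 0.38 for CD55 on the log2 scale. With 2R6R-HNK it was -0.54 for C1R, 0.54 for SERPING1, -0.68 for CFD, 0.54 for CD46, 0.67 for CD55 and 0.67 for CD59. With 2S6S-HNK it was -0.92 for C1R, -0.52 for C1S, -0.85 for SERPING1, -0.84 for CFD, 0.70 for CD46, 0.92 for CD55 and 0.75 for CD59. Over all genes, 37.5%, 56.6% and 65.1% had an interaction with ketamine, 2R6R-HNK and 2S6S-HNK. With the GC and length correction the calls for CD46 and CD55 were lost, at -0.11 to 0.04 and 0.08 to 0.16, and so was that for CFB, at a like value (-1.13, adjusted p = 0.0568). Those for CFD were kept at -0.25 and -0.23, and those for CD59 at 0.40 and 0.47, with the ketamine interaction of CD59 newly called (0.14, adjusted p = 0.000211). The calls were also kept for C1R (-0.63 to -0.37), C1S (-0.77 and -0.65) and SERPING1 (0.57 and -0.67).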

How the results depend on the processing

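Of the 144 log2 values of members (9 genes in 16 comparisons), halved counts changed no call and turned no sign. DESeq2 on all libraries lost 3 calls, DESeq2 on the groups compared 13, edgeR on the groups compared lost 2 and gained 1, upper-quartile normalization lost 2 and gained 2, and no filter and the stricter filter gained 2 each. Upper-quartile normalization moved the median of all genes by 0.06 to 0.10. The replicate block changed no call of a member. The replicate numbers are shared by 2 libraries per condition only, and the correlation of their differences between conditions was -0.147 to 0.0874, so they were not taken as pairs. Leaving out 1 library, which assumes that a lone library varies like the others, gave 47 lost and 4 gained calls and no turned sign.

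The GC and length correction turned the sign of 24 values that were called with or without it, and the cause was not tested. A further 20 calls were lost and 1 was gained with no turned sign. Against vehicle CD46 was then 0.05 (E2), 0.23 (ketamine), 0.20 (2R6R-HNK), 0.26 (2S6S-HNK), 0.31 (E2+ketamine), 0.20 (E2+2R6R-HNK) and 0.20 (E2+2S6S-HNK). CD55 was 0.04, 0.10, 0.08, 0.06, 0.30 and 0.21 for the first 6 of these. CFD was -0.03 (ketamine), -0.07 (E2+2R6R-HNK) and -0.05 (E2+2S6S-HNK). The CD46 interactions were -0.05 (2R6R-HNK) and -0.11 (2S6S-HNK). Among pairs, CD46 was -0.03 (ketamine minus 2S6S-HNK), 0.12 (E2+ketamine minus E2+2R6R-HNK) and 0.11 (E2+ketamine minus E2+2S6S-HNK), CD55 was 0.13 (E2+ketamine minus E2+2S6S-HNK) and 0.03 (E2+2R6R-HNK minus E2+2S6S-HNK), and CFD was -0.03 in the last pair. With the replicate block and the correction together these values were the same to 0.01, with -0.10 for the 2S6S-HNK interaction of CD46 and -0.02 for CFD in the last pair. With E2 present, corrected effects of each drug were still higher for C1R (0.56 to 0.67) and SERPING1 (0.64 to 1.12). Calls were gained for CD46 with ketamine (0.27, before 0.01) and 2R6R-HNK (0.15, before 0.07). CD55 with ketamine (0.26, before 0.01) and CFD with 2R6R-HNK (-0.19, before -0.09) also gained a call. Calls were lost for CFD with ketamine (0.13, before 0.42) and CD55 with 2S6S-HNK (0.14, before 0.36). CD59 stayed lower with ketamine (-0.06, before -0.22).

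Each count below stands beside the share of all genes called in the same fit. The correction, with or without the replicate block, gave 4 members changed with E2 (38.1% of all genes with the correction alone), and 5 each with ketamine (48.5%), 2S6S-HNK (56.8%) and E2+2R6R-HNK (59.4%), CD46 among the 5 with its sign turned. It gave 3 ketamine interactions (36.7%), those of C1R and C1S and the newly called one of CD59, 3 members for ketamine minus 2R6R-HNK (39.5%), 2 for ketamine minus 2S6S-HNK (41.7%) and 2 for E2+2R6R-HNK minus E2+2S6S-HNK (32%). On the wider list it gave 5 genes higher with E2 (15.7%), 3 lower with 2S6S-HNK (31.5%) and 2 lower with E2+ketamine (28.4%), and 2 lower with E2+2R6R-HNK when the block was added (33.6%). DESeq2 on the groups compared gave 3 ketamine interactions (37.7%), 3 members for ketamine minus 2R6R-HNK (47%), and on the wider list 6 higher with ketamine (25.7%), 3 lower with E2+ketamine (32.9%) and 2 lower with E2+2S6S-HNK (26.2%). The stricter filter and halved counts each gave 3 list genes lower with 2R6R-HNK (39% and 37.3%). Leaving out 1 library gave 1 to 3 members past the fold limit with ketamine (3.44% to 3.63%), 2 to 4 with 2S6S-HNK (8.10% to 9.44%), 3 to 6 ketamine interactions (32.1% to 33.8%), 2 to 4 members for ketamine minus 2S6S-HNK (38.6% to 41.7%), and 3 to 6 for E2+2R6R-HNK minus E2+2S6S-HNK (46.1% to 49%). On the list it gave 5 to 8 higher with E2 (26.5% to 26.9%), 6 to 8 higher with ketamine (22.9% to 23.5%), 3 to 5 lower with 2R6R-HNK (31.8% to 32.3%), 3 to 5 lower with E2+ketamine (34.6% to 35%) and 2 to 4 lower with E2+2S6S-HNK (31.6% to 32.3%). Depth limits C3 and CFB, with at most 84 counts in any library.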
